A study of Homo sapiens with 50 samples.

Results

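Transcript levels of 6 genes of glycine breakdown and glycine use were followed in the human lung adenocarcinoma line A549, among 18227 genes measured on 50 Affymetrix HG-U219 arrays. The genes are GLDC, AMT, GCSH and DLD, which encode the 4 proteins of the glycine cleavage system, and GCAT and GATM, which encode enzymes that make or use glycine. They were chosen by name and function, with earlier results of these data known. Where several probe sets were annotated to a gene, the one brightest on average across the 50 arrays was used, so that 6 of the 22 probe sets annotated to these genes carry the main results. The series asks how an activator of PKM, a pyruvate kinase (the enzyme that ends glycolysis), acts in cells with and without serine in the medium.

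All cells grew first in RPMI medium. Both other media were BME with non-essential amino acids (NEAA), and cells entered them 24 h before 1 uM compound 16 or the solvent DMSO was added. The 17 groups were compound 16 without serine, DMSO without serine, compound 16 with serine and DMSO with serine, each collected at 0, 1.5, 6 and 24 h after the addition, and the cells in RPMI before the change of medium. Each group held 3 arrays, except DMSO with serine at 1.5 h, which held 2. At 0 h cells without serine had therefore already spent 24 h without it, and for the compound 16 arm of that time the labels do not say whether compound was added before collection. The labels do not state the glycine content of any medium, and a single cell line served as the model.

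The glycine cleavage system is a mitochondrial enzyme complex that splits glycine into carbon dioxide, ammonia and a one-carbon unit carried by tetrahydrofolate. The P protein removes the carboxyl group of glycine, the H protein carries the remaining aminomethyl group on a lipoyl arm, the T protein passes its carbon to tetrahydrofolate, and the L protein reoxidises the lipoyl arm. Serine and glycine are interconverted by the serine hydroxymethyltransferases, so that a lack of serine bears on the same pool of glycine and one-carbon units.

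The arrays carried the marks of the labelled line. Among the markers of A549 and lung epithelial lines, group means were 13.33 to 13.71 for KRT8, 14.27 to 14.42 for KRT18, 14.29 to 14.40 for AKR1B10 and 14.15 to 14.37 for ALDH1A1, all as log2 signals on an array scale of 3.364 to 14.58. The leukocyte gene PTPRC was at 3.98 to 4.21, the endothelial PECAM1 at 4.29 to 4.67 and the fibroblast gene DCN at 3.83 to 4.30, near the bottom of the scale. CD3E (4.16 to 4.75), CDH5 (4.1 to 4.57) and COL1A1 (4.37 to 4.76) of the same lists were also low. The blood gene HBB was higher, at 5.25 to 5.93, and the fibroblast gene COL3A1 was at 4.69 to 5.11. The lung lineage factor NKX2-1, listed as low or deleted in A549, was at 4.42 to 4.95, and CDKN2A of the same list was higher, at 4.99 to 5.78. Array medians lay between 5.40 and 5.54. As a measure of RNA quality, 3′ minus 5′ probe signals were taken for ACTB and GAPDH. ACTB had group means of 1.01 to 1.37, the highest in the cells before the change of medium. Under compound 16 at 6 h ACTB was at 1.20 without serine and 1.01 with serine. GAPDH had group means of -0.19 to -0.12, with -0.157 in the cells before the change. The part of these values in the comparisons was not tested.

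Levels of the 6 genes covered much of the array scale. DLD (probe set 11718108_a_at) had a mean log2 signal of 11.62 over the 50 arrays, at percentile 95.7 of gene means. GLDC (11756165_s_at) was at 8.53 and percentile 69.2, GATM (11716814_s_at) at 8.03 and 63.5, and GCSH (11759414_at) at 7.81 and 61.4. GCAT (11721325_a_at) was at 6.29 and percentile 49, and AMT (11719577_a_at) at 5.37 and 42.1. These are signals of different probe sets and give no order of transcript amounts between genes. In bulk RNA such as this, fewer cells that express a gene and less RNA of it per cell cannot be told apart.

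Only 2 of the 6 genes had group means that spread much more widely than their replicates. For GLDC, the SD of the 17 group means was 0.254, against 0.116 within groups, a ratio of 2.2 that lies at percentile 92.0 of all genes. For GATM the SDs were 0.332 and 0.212, a ratio of 1.57 at percentile 79.5. The ratios of DLD (0.97), GCSH (0.93), AMT (0.77) and GCAT (0.58) lay near or under the median of all genes, 0.92. The ratio sets means of several arrays against single arrays, so these lower ratios do not show that the groups were alike. The highest group exceeded the lowest 1.78-fold for GLDC and 2.58-fold for GATM, against 1.47-fold for GCAT, 1.44-fold for GCSH, 1.36-fold for AMT and 1.16-fold for DLD. With the groups set in order of their means, arrays of all 16 pairs of neighbours overlapped for GLDC, AMT, DLD and GCAT. For GCSH 15 of 16 overlapped, and for GATM 14 of 16. Neighbours in such an order lie close by its making, and the same count was not made over all genes. These counts therefore do not set the 6 genes apart from others. GLDC was highest in RPMI cells and lowest under compound 16 without serine at 24 h (8.10), and GATM was highest in DMSO without serine at 6 h (8.50).

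**Figure D1:**
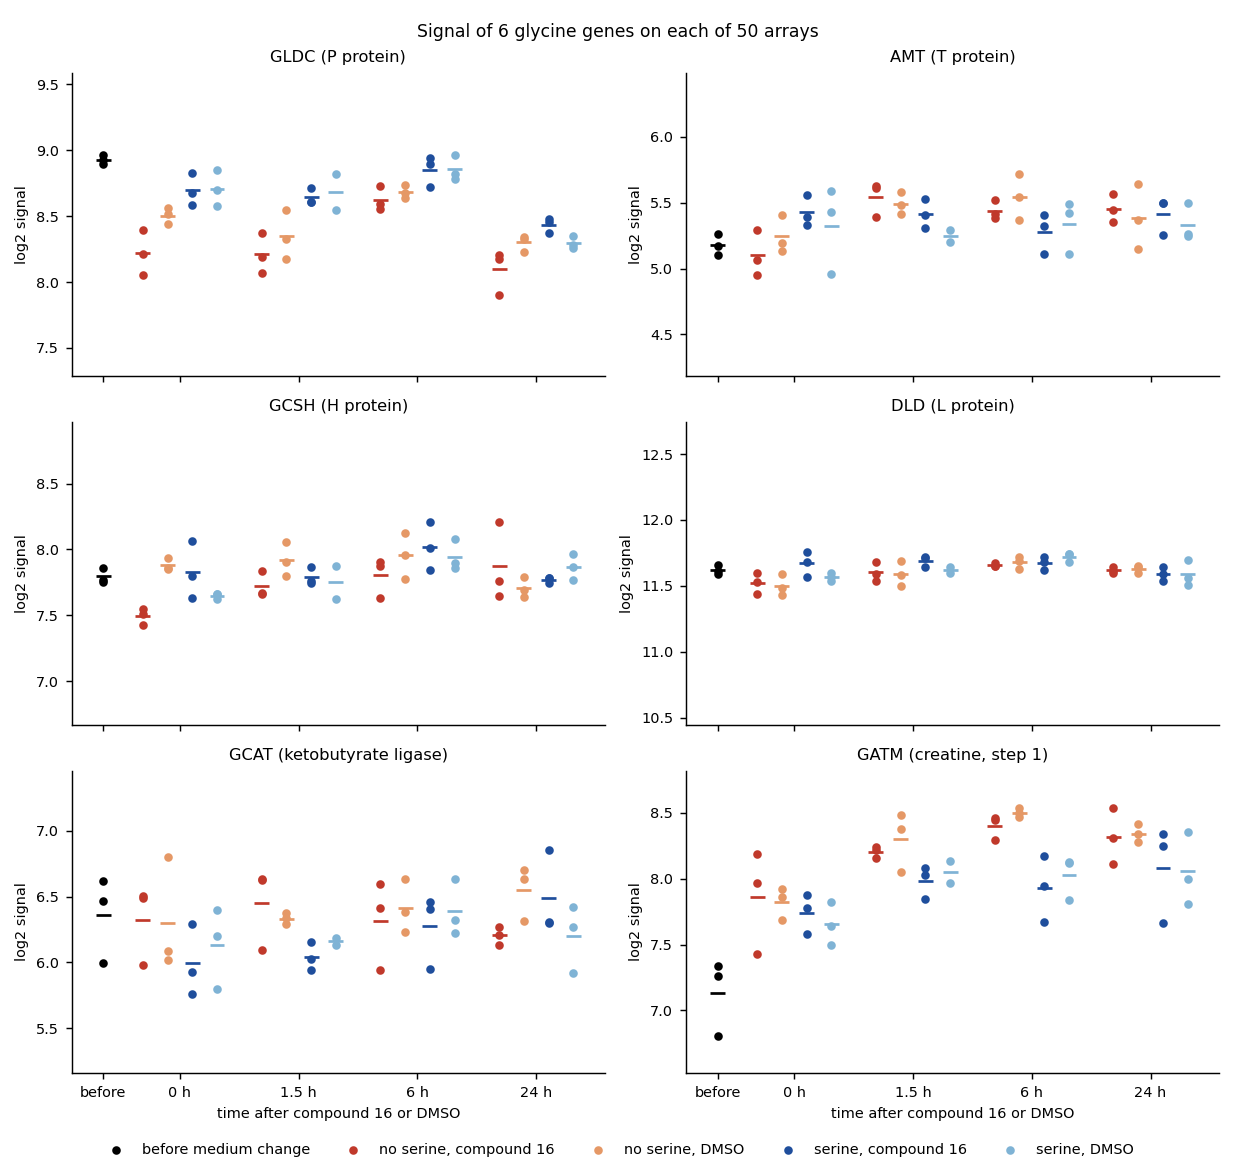
Log2 signal of each of the 6 genes (vertical axes) in every array, by time after addition of compound 16 or DMSO in h (horizontal axes), with the RPMI cells at the left. Points are arrays, bars are group means and colours are the medium and treatment. GLDC is highest and GATM lowest before the change of medium, with means of 8.93 and 7.14.

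The promoters of GLDC and GATM are shown because these 2 genes carry the differences described below, and in opposite directions. Each is a window of 300 bases, 250 before and 50 after the annotated start, from RefSeq (GRCh38.p14), and capitals mark GC boxes (GGGCGG) and CCAAT boxes (CCAAT) found on either strand. The GLDC window is chr9:6645680-6645979 on the minus strand, and the GATM window is chr15:45378495-45378794 on the minus strand.
GLDC: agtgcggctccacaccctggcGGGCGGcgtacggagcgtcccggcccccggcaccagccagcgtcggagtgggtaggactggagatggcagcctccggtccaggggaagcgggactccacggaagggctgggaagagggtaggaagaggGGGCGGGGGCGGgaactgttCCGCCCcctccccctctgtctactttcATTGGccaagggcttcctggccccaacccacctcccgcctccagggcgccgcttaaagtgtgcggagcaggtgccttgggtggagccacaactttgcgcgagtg
GATM: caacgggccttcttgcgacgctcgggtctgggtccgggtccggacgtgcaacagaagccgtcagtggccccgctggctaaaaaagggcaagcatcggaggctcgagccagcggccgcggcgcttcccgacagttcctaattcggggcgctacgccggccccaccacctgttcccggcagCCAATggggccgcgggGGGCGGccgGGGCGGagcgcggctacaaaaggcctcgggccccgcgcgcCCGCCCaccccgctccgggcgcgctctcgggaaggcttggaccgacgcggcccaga

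The GLDC window held 4 GC boxes and 1 CCAAT box, and the GATM window 3 GC boxes and 1 CCAAT box. Windows of AMT, DLD, GCSH and GCAT also held CCAAT boxes, and those of GCSH and GCAT 2 GC boxes each. Of all 35116 promoter windows of this length, 45% held a GC box and 34.6% a CCAAT box. RefSeq windows were found for 6 of 6 genes, 7 in all, since DLD has 2 that overlap. None of the 7 held the amino acid response element TGATGNAAN (in 3.61% of all windows), the E box CACGTG (7.26%) or the TATA box TATAAA (11.5%). The short cyclic AMP response motif TGACGT (7.98%) was found in both windows of DLD. Motifs were searched on both strands, and GC boxes can lie end to end, as a pair of them does in the GLDC window.

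GLDC, the P protein that decarboxylates glycine and gives the cleavage system its entry, was lower in cells without serine. At 0 h the compound 16 arm had log2 signals of 8.40, 8.06 and 8.22 without serine, against 8.68, 8.59 and 8.83 with serine. In DMSO at 0 h the values were 8.56, 8.51 and 8.44 without serine and 8.85, 8.58 and 8.70 with serine. Neither pair of groups overlapped at this time, where 18.6% of all genes under compound 16 and 22.9% in DMSO did not overlap. At 1.5 h GLDC had 8.07, 8.38 and 8.19 under compound 16 without serine, against 8.61, 8.72 and 8.61 with serine. In DMSO at 1.5 h it had 8.17, 8.33 and 8.55 without serine, against 8.82 and 8.54 with serine, and here 1 array without serine lay at the level of the lower array with serine.

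At 6 h GLDC had values under compound 16 of 8.73, 8.56 and 8.59 without serine and 8.89, 8.72 and 8.94 with serine, with the groups touching at 1 array. In DMSO at 6 h they were 8.74, 8.67 and 8.64 without serine and 8.82, 8.97 and 8.79 with serine, without overlap. At 24 h the groups stood apart under compound 16, with 7.90, 8.18 and 8.21 without serine against 8.37, 8.45 and 8.48 with serine. In DMSO at 24 h the groups overlapped, with 8.34, 8.23 and 8.33 without serine and 8.35, 8.26 and 8.28 with serine. Over all genes, the share without overlap at 1.5, 6 and 24 h was 21%, 26.5% and 20.5% under compound 16 and 29%, 18.1% and 12.6% in DMSO.

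Calls below are made at a limma adjusted p under 0.05, with Benjamini-Hochberg adjustment over the 18227 genes of a comparison, and differences are log2 differences with their SE. Under compound 16, GLDC fell without serine by 0.47 ± 0.095 at 0 h (adjusted p = 0.00178), by 0.43 ± 0.095 at 1.5 h (adjusted p = 0.00437) and by 0.34 ± 0.095 at 24 h (adjusted p = 0.0287), while at 6 h the difference was -0.23 (adjusted p = 0.124). It was the only one of the 6 genes called in these comparisons, 1 of 6 at 0, 1.5 and 24 h and 0 of 6 at 6 h. The shares of all genes called were 4.12%, 3.34% and 4.41% at 0, 1.5 and 24 h, and 11.8% at 6 h. The call at 24 h was lost without any of 3 single arrays (adjusted p = 0.0924 and 0.103 without replicates 94 and 95 of compound 16 with serine, 0.251 without replicate 99 of compound 16 without serine). The call at 1.5 h was lost without replicate 51 of compound 16 without serine (adjusted p = 0.0591). In fits of the compared arrays alone GLDC was called at none of these times (adjusted p = 0.21, 0.101 and 0.216 at 0, 1.5 and 24 h).

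In DMSO the same comparison of GLDC gave -0.20 at 0 h (adjusted p = 0.219), -0.33 ± 0.106 at 1.5 h (0.105), -0.17 at 6 h (0.442) and 0.00 at 24 h (0.995), none of them called. None of the 6 genes was called in DMSO by limma at any time, with 2, 1, 1 and 0 of 6 at an unadjusted p under 0.05 at 0, 1.5, 6 and 24 h, against 19.7%, 11.2%, 13.7% and 7.82% of all genes. The shares of all genes called after adjustment were 5.9%, 1.98%, 3.18% and 0.159%. Leaving out replicate 56 of DMSO without serine brought GLDC at 1.5 h to -0.43 with an adjusted p of 0.0348. That the calls lie under compound 16 does not show that GLDC differed more there: the difference between the 2 serine effects did not pass at any time, and the one at 24 h was -0.34 ± 0.134 (adjusted p = 0.281).

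The serine comparisons of both treatments were also averaged, a step chosen after the values had been seen. Over the 8 pairs of groups GLDC was 1.21-fold lower without serine, a log2 difference of -0.27 ± 0.034 (adjusted p = 5.98e-08), and it was below its counterpart in 7 of 8 pairs. At single times, with compound 16 and DMSO averaged, GLDC fell by 0.34 ± 0.067 at 0 h (adjusted p = 0.00045), by 0.38 ± 0.071 at 1.5 h (adjusted p = 0.000293) and by 0.20 ± 0.067 at 6 h (adjusted p = 0.0373). At 24 h its difference was -0.17 ± 0.067 (adjusted p = 0.201). Of the 6 genes, GLDC and GATM were called in the mean over all 8 pairs, where 21.1% of all genes were called. At single times GLDC alone was called at 0 h (12.6% of all genes) and 1.5 h (6.95%), GLDC and GATM at 6 h (14.2%) and 0 of 6 at 24 h (3.58%). The 6 h call of GLDC rested on most of the arrays, since leaving out any of 7 single arrays raised its adjusted p to between 0.0656 and 0.106 (0.106 without replicate 61 of DMSO with serine).

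AMT, the T protein that hands the carbon to tetrahydrofolate, had signals of 4.95 to 5.72 in all 50 arrays, in the lower part of the scale. The blood gene HBB and CDKN2A, listed as low or deleted in A549, had group means of 5.25 to 5.93 and 4.99 to 5.78. Whether AMT lay above background was not tested. Its serine differences ran from -0.33 to 0.24, above 0 in 6 of 8 pairs, and 0 of 8 were called. At 0 h under compound 16 it had 5.06, 5.29 and 4.95 without serine, against 5.56, 5.33 and 5.39 with serine. These arrays did not overlap, as was the case for 18.6% of all genes, and the difference of -0.33 ± 0.129 did not pass (adjusted p = 0.167). Averaged over the 8 pairs the difference was 0.05 ± 0.046.

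GCSH, the H protein that shuttles the aminomethyl group, also went uncalled in all 8 pairs, with differences of -0.34 to 0.23. The compound 16 arm without serine at 0 h had 7.51, 7.43 and 7.55, below every other group. The compound 16 arm with serine at 0 h had 8.06, 7.64 and 7.80, a difference of -0.34 ± 0.110 (adjusted p = 0.0767). At the same time in DMSO, GCSH had 7.85, 7.93 and 7.86 without serine and 7.66, 7.66 and 7.62 with serine, a difference of the opposite sign, 0.23 ± 0.110 (adjusted p = 0.234). The mean over all 8 pairs was -0.03 ± 0.039.

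DLD is the L protein that also serves the pyruvate, 2-oxoglutarate and branched-chain ketoacid dehydrogenases. By its main probe set it was the steadiest of the 6, with serine differences of -0.15 to 0.04. Its 50 arrays lay between 11.43 and 11.76, and groups with and without serine overlapped in all 8 pairs. Its mean over the pairs was -0.04 ± 0.020 (adjusted p = 0.174).

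GCAT, the mitochondrial ligase that joins acetyl-CoA and glycine or, in reverse, splits the breakdown product of threonine to yield glycine, was the noisiest, with a replicate SD of 0.265. Its serine differences ran from -0.28 to 0.41, above 0 in 7 of 8 pairs, and 0 of 8 were called. Under compound 16 at 1.5 h it had 6.64, 6.63 and 6.09 without serine, against 6.03, 5.94 and 6.15 with serine. The groups overlapped through 1 array, and the difference of 0.41 ± 0.207 did not pass (adjusted p = 0.369). The mean over the 8 pairs was 0.15 ± 0.074 (adjusted p = 0.161).

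GATM, the amidinotransferase that joins arginine and glycine in the first step of creatine synthesis, ran the other way from GLDC and was higher without serine in 8 of 8 pairs. At 6 h under compound 16 it had 8.47, 8.30 and 8.45 without serine, against 7.95, 7.67 and 8.17 with serine. In DMSO at 6 h it had 8.54, 8.47 and 8.50 without serine, against 8.12, 8.13 and 7.84 with serine. Neither pair overlapped at 6 h, where 26.5% of all genes under compound 16 and 18.1% in DMSO did not overlap. At 0 h the groups overlapped, with 8.19, 7.43 and 7.97 under compound 16 without serine against 7.58, 7.88 and 7.78 with serine, and with 7.86, 7.69 and 7.93 in DMSO without serine against 7.64, 7.83 and 7.50 with serine.

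At 1.5 h GATM had 8.22, 8.24 and 8.16 under compound 16 without serine, against 7.85, 8.03 and 8.08 with serine, without overlap (21% of all genes did not overlap). In DMSO at 1.5 h it had 8.05, 8.38 and 8.49 without serine and 7.97 and 8.13 with serine, which overlapped. At 24 h it had 8.53, 8.11 and 8.31 under compound 16 without serine against 8.34, 7.66 and 8.25 with serine, which overlapped. In DMSO at 24 h it had 8.34, 8.42 and 8.28 without serine against 8.36, 8.002 and 7.81 with serine, and here 1 array with serine lay among those without.

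None of the 8 single GATM differences, 0.12 to 0.48, was called. The differences at 6 h were 0.47 ± 0.17 under compound 16 (adjusted p = 0.0601) and 0.48 ± 0.17 in DMSO (adjusted p = 0.13). Averaged over both treatments, GATM rose by 0.47 ± 0.118 at 6 h (adjusted p = 0.00395), and over all 8 pairs by 0.28 ± 0.060, a 1.21-fold rise (adjusted p = 0.000478). At 0, 1.5 and 24 h the averaged differences were 0.15, 0.24 and 0.26 and did not pass.

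**Figure D2:**
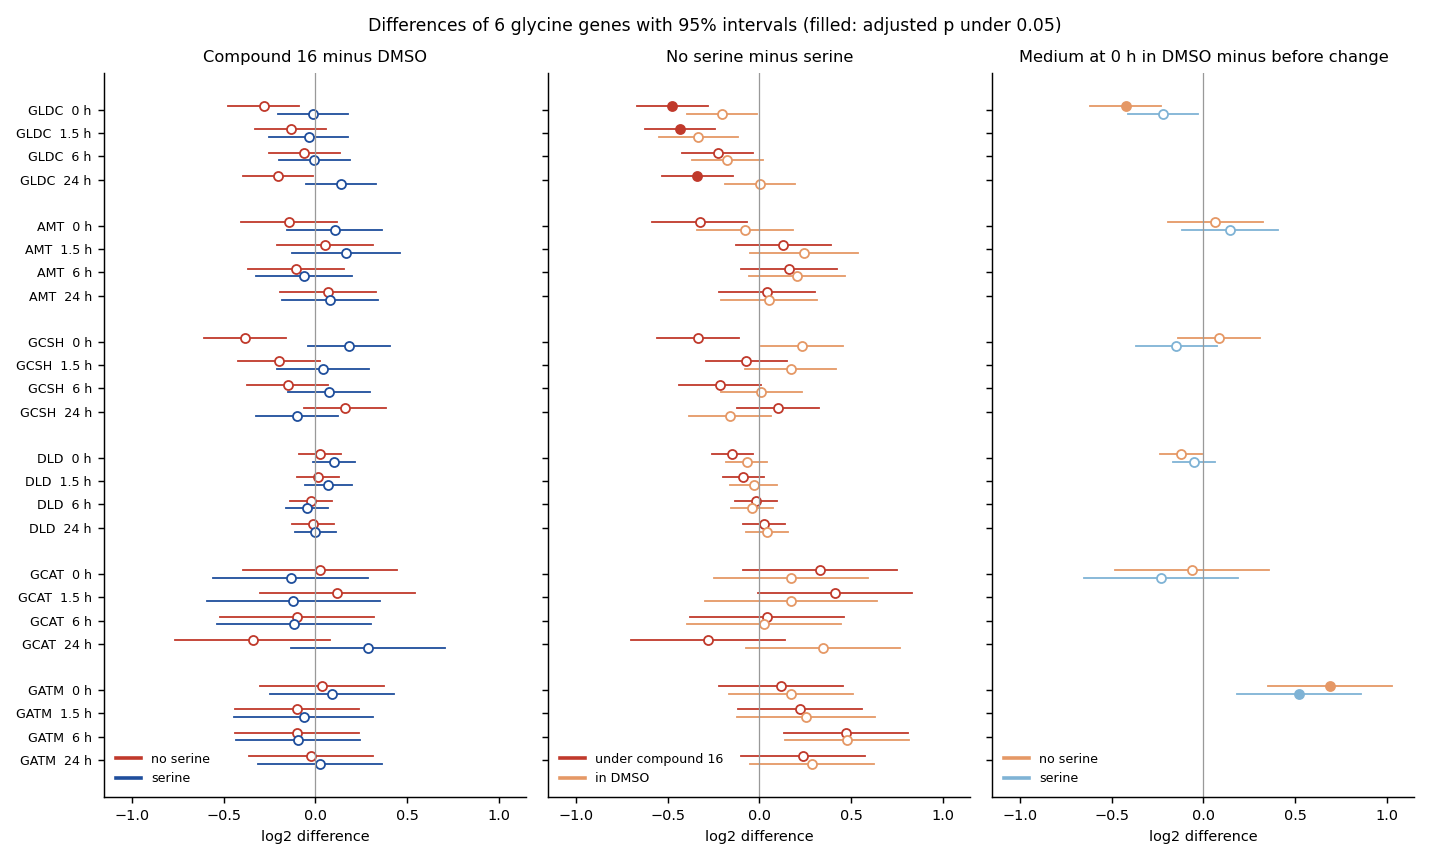
Log2 differences with 95% intervals (horizontal axes) for each gene and time (rows), for compound 16 minus DMSO on the left, medium without minus with serine in the middle and medium at 0 h in DMSO minus the cells before the change on the right. Filled circles have an adjusted p under 0.05. All compound differences are open, and GLDC without serine is filled at 0, 1.5 and 24 h under compound 16.

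GLDC and GATM also differed between cells in the new media and cells before the change. At 0 h in DMSO GLDC had 8.56, 8.51 and 8.44 without serine and 8.85, 8.58 and 8.70 with serine, against 8.93, 8.90 and 8.97 in RPMI before the change. GATM had 7.86, 7.69 and 7.93 without serine and 7.64, 7.83 and 7.50 with serine, against 7.34, 7.26 and 6.80 before the change. In medium without serine GLDC was 1.34-fold lower, a difference of -0.42 ± 0.095 (adjusted p = 0.000563), and GATM 1.61-fold higher, a difference of 0.69 ± 0.17 (adjusted p = 0.00131). In medium with serine GATM was 1.43-fold higher, by 0.52 ± 0.17 (adjusted p = 0.0205), while GLDC was at -0.22 (adjusted p = 0.0998). No array of GLDC or GATM at 0 h in DMSO overlapped with the cells before the change, as was the case for 38.3% of all genes without serine and 33.5% with serine. Called were 2 of 6 genes in medium without serine, where 28.6% of all genes were called, and 1 of 6 with serine, where 21.8% were. With the second probe sets the GATM call was lost in both media (0.76 with an adjusted p of 0.053 without serine, and 0.16 with 0.811 with serine). With serine it was also lost with the mean of probe sets (0.37, adjusted p = 0.0983) and after centring arrays on their medians (0.44, adjusted p = 0.0568).

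The lowest GATM array before the change, replicate 3 at 6.80, weighed on the second of these results. Without it the difference in medium with serine was 0.36 (adjusted p = 0.188), and without replicate 14 of DMSO with serine at 0 h it was 0.44 (adjusted p = 0.109). DLD differed by -0.12 without serine and -0.05 with serine, AMT by 0.07 and 0.14, GCSH by 0.08 and -0.15 and GCAT by -0.06 and -0.23, none of them called. Leaving out replicate 19 of DMSO without serine brought DLD to -0.17 (adjusted p = 0.0452), and leaving out replicate 13 of DMSO with serine brought GLDC with serine to -0.29 (adjusted p = 0.0472). The numbers in the array titles form a block per time and another for the RPMI cells, so that comparisons between times cannot be told apart from a shift between these blocks.

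In DMSO without serine, GATM was 1.6-fold higher at 6 h than at 0 h, a rise of 0.68 ± 0.17 (adjusted p = 0.00278), and 0.52 higher at 24 h than at 0 h (adjusted p = 0.0192). Its 3 arrays at 6 h lay within 8.47 to 8.54 and formed its highest group. DLD without serine had 11.69, 11.72 and 11.63 at 6 h, against 11.59, 11.48 and 11.43 at 0 h, a rise of 0.18 ± 0.056 (adjusted p = 0.0179). With serine, DLD had 11.68, 11.74 and 11.74 at 6 h against 11.54, 11.57 and 11.60 at 0 h, a difference of 0.15 ± 0.056 that did not pass (adjusted p = 0.0693). GLDC with serine fell by 0.41 ± 0.095 at 24 h relative to 0 h (adjusted p = 0.0016).

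These comparisons between times depend on how arrays are scaled. Centring each array on its median moved every gene up by 0.13 and 0.19 at 6 and 24 h against 0 h without serine, and by 0.16 and 0.22 with serine. With that shift GLDC with serine at 24 h was at -0.19 and no longer called (adjusted p = 0.0919). GLDC at 6 h came to 0.31 in both media, now called (adjusted p = 0.0124 without serine and 0.0125 with serine), and DLD was called in all 4 comparisons, at 0.24 to 0.32. GATM in DMSO with serine was then also called, at 0.53 at 6 h and 0.62 at 24 h, as was GCSH with serine, at 0.46 at 6 h (adjusted p = 0.0033) and 0.44 at 24 h (adjusted p = 0.00325). AMT without serine at 6 h came to 0.43 (adjusted p = 0.0151).

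In DMSO without serine 2 of 6 genes were thus called at 6 h against 0 h (22.4% of all genes) and 1 of 6 at 24 h against 0 h (25.5%). In DMSO with serine 0 of 6 were called by limma at 6 h (14.3%), with 3 of 6 at an unadjusted p under 0.05 (26.2% of all genes), and 1 of 6 at 24 h (20.7%). The DLD call was lost without any of 4 single arrays (adjusted p 0.0526 to 0.108, the highest without replicate 21 of DMSO without serine at 0 h). The GATM call at 24 h was lost without replicate 20 of DMSO without serine at 0 h (adjusted p = 0.0828) or the array of that group with the highest value at 24 h (0.0647). Other settings ended these calls too. With the second probe sets and with the mean of probe sets, GATM without serine was not called at 6 h (adjusted p = 0.251 and 0.0841) or at 24 h (0.449 and 0.156). DLD at 6 h was not called after quantile normalization (adjusted p = 0.0866) or in a fit of the compared arrays alone (0.167). GLDC with serine at 24 h was not called with the mean of probe sets (adjusted p = 0.153).

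Compound 16 left none of the 6 genes past the threshold. Of 48 tests in the 8 comparisons with DMSO, 0 were called by limma, and 3 had an unadjusted p under 0.05, 2 of 6 genes without serine at 0 h (7.23% of all genes) and 1 of 6 without serine at 24 h (18.8%). The lowest adjusted p was 0.23, for GLDC without serine at 24 h. Without serine 0% of all genes were called at 0 h, 0.0823% at 1.5 h, 2.72% at 6 h and 7.08% at 24 h. With serine 0% were called at 0, 1.5 and 6 h and 1.37% at 24 h.

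GLDC at 24 h without serine, with the arrays given above, did not overlap between compound 16 and DMSO (22.7% of all genes did not) and differed by -0.20 ± 0.095, with a 95% interval of -0.40 to -0.01. With serine at 24 h it lay on the other side, at 0.14, again without overlap (15.8% of all genes). At 0 h the arms without serine differed by -0.28 ± 0.095 for GLDC (unadjusted p = 0.0051) and -0.38 ± 0.110 for GCSH (unadjusted p = 0.00127), neither called after adjustment (adjusted p = 0.491 and 0.368). Their part in the differences at later times was not tested.

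Over 1.5 to 24 h in both media, the 95% intervals of the compound differences ran from -0.16 to 0.20 for DLD, from -0.40 to 0.33 for GLDC, from -0.37 to 0.46 for AMT, from -0.42 to 0.39 for GCSH, from -0.44 to 0.37 for GATM and from -0.76 to 0.71 for GCAT. GATM at 6 h did not overlap between compound 16 and DMSO without serine, with values of 8.47, 8.30 and 8.45 against 8.54, 8.47 and 8.50, a difference of -0.10 (19.1% of all genes did not overlap). The test of whether the compound effect differed between media was called for 0 of 6 genes at each time, with 1 of 6 at an unadjusted p under 0.05 at 0 h (GCSH, 5.88% of all genes) and 2 of 6 at 24 h (GLDC and GCAT, 11% of all genes). Of all genes, 0% passed that test at 0 h, 0.0165% at 1.5 h, 0.9% at 6 h and 1.28% at 24 h.

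Other genes of glycine metabolism passed the test under compound 16. In all, 4 of 43 listed genes were called without serine at 6 h (9.3%, against 2.72% of all genes), 5 without serine at 24 h (11.6%, against 7.08%) and 5 with serine at 24 h (11.6%, against 1.37%). The set of 43 measured genes, of 45 listed, was drawn from glycine supply, glycine use, carriers, creatine metabolism, lipoylation and the complexes that share DLD. SHMT2, the mitochondrial enzyme that makes glycine from serine, rose without serine by 0.48 ± 0.07 at 6 h (adjusted p = 6.69e-06) and by 0.61 ± 0.07 at 24 h (adjusted p = 1.72e-08), and with serine by 0.52 at 24 h (adjusted p = 2.69e-06). GARS1, the glycyl-tRNA synthetase, rose without serine by 0.59 ± 0.06 at 6 h and by 1.04 ± 0.06 at 24 h, and with serine by 0.70 at 24 h. At 6 h the rises of SHMT2 and GARS1 were larger without serine, by 0.53 (adjusted p = 0.00128) and 0.69 (adjusted p = 3.24e-06).

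Among carriers, the glycine transporter SLC6A9 rose by 0.81 ± 0.16 without serine at 24 h (adjusted p = 0.000705), while SLC6A14, a broad amino acid carrier, fell by 0.69 ± 0.17 (adjusted p = 0.00613). The mean log2 signal of SLC6A14 was 4.82, in the lower part of the scale. SLC38A2, a small neutral amino acid carrier, rose by 0.26 without serine at 6 h and by 0.26 with serine at 24 h. With serine at 24 h SHMT1, the cytosolic counterpart of SHMT2, fell by 0.29 and the carrier SLC7A10 by 0.47, and without serine at 6 h DLAT, the E2 subunit of pyruvate dehydrogenase, fell by 0.23. SLC7A10 had a mean log2 signal of 4.37, near the bottom of the scale. Without serine at 24 h, the lists had 1 of 6 supply genes higher, 2 of 10 use genes higher (GARS1 and the purine synthesis gene GART) and 1 higher and 1 lower of 7 carriers. None of the 6 creatine genes, 3 lipoylation genes or 11 genes of the DLD-sharing complexes was called. The medians of these lists were 0.10, -0.06, 0.10, -0.10, -0.13 and -0.06, against 0.00 over all genes, and that of the 6 genes of glycine cleavage and use was -0.02.

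Under serine lack, averaged over the 8 pairs, 13 of the 43 listed genes passed, 30.2%, against 21.1% of all genes. The carriers SLC38A2 (0.22, adjusted p = 4.48e-11) and SLC25A38 (0.12), a mitochondrial glycine carrier, rose, as did SHMT2 (0.09), AGXT2 (0.18), BCKDHA (0.18) and BCKDHB (0.10). AGXT2 had a mean log2 signal of 4.39, near the bottom of the scale. The cytosolic serine hydroxymethyltransferase SHMT1 fell by 0.12 (adjusted p = 0.000336), ALAS1, which starts haem synthesis from glycine, by 0.15 (adjusted p = 0.00035), BAAT, which conjugates bile acids with glycine or taurine, by 0.33, and the glutathione synthetase gene GSS by 0.10. LIAS, the lipoyl synthase that supplies the lipoyl arm of the H protein, fell by 0.14, DHTKD1, a relative of the 2-oxoglutarate dehydrogenase, by 0.12, and PDHX, which anchors DLD in the pyruvate dehydrogenase complex, by 0.10. No other creatine gene was called with GATM, 0 of 6. Of these, CKM (4.40), CKMT1B (4.65) and CKMT2 (3.99) had mean log2 signals near the bottom of the scale.

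**Figure D3:**
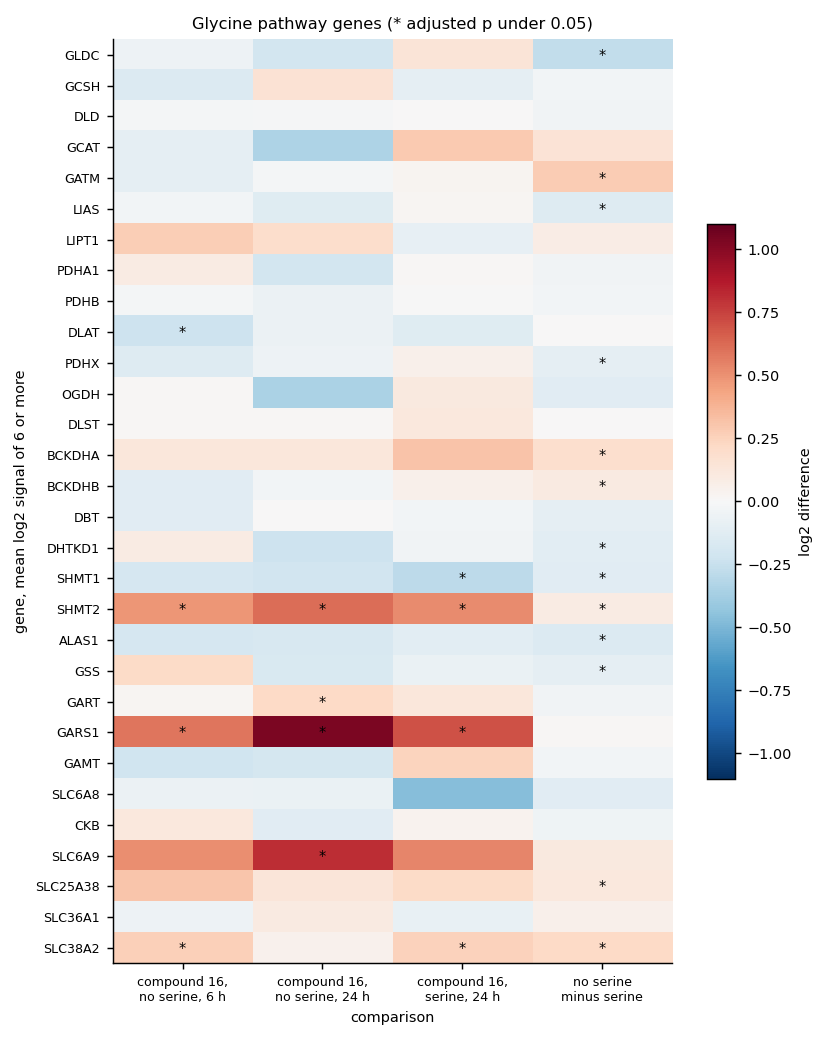
Log2 difference (colour scale) of 30 glycine pathway genes with a mean log2 signal of 6 or more (rows) in 4 comparisons (columns), with stars where the adjusted p was under 0.05. SHMT2 and GARS1 are starred in all 3 compound columns, and GLDC and GATM only in the serine column. AMT, with a mean of 5.37, is not drawn.

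Other probe sets of the same genes were tested in a fit of all probe sets. The second GLDC probe set, with a mean of 7.57, gave -0.28 in the mean over the serine pairs (adjusted p = 0.000888) and -0.56 for the medium without serine against the cells before the change (adjusted p = 0.0154), both called. It was not called for serine lack under compound 16, with -0.40 at 0 h (adjusted p = 0.265), -0.58 at 1.5 h (0.0772) and -0.07 at 24 h (0.923), nor in the averaged comparison at 0 h (-0.31, adjusted p = 0.117) and 6 h (-0.11, 0.715). It gave -0.04 for DMSO with serine at 24 h against 0 h (adjusted p = 0.907). GATM's second probe set, at 5.74, gave 0.45 in the serine mean (adjusted p = 0.00138), and its dimmest, at 5.30, gave 0.16 (adjusted p = 0.234). In the averaged serine comparison at 6 h these gave 0.57 (adjusted p = 0.069) and 0.08 (adjusted p = 0.859), neither called, where the main probe set gave 0.47. The dimmest gave -0.05 in DMSO without serine at 6 h against 0 h (adjusted p = 0.917), where the main probe set gave 0.68.

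Probe sets of DLD disagreed at 0 h. In DMSO, 3 of its 7 probe sets, all of a type that can also bind related sequences, gave -0.22, -0.29 and -0.26 without minus with serine (adjusted p = 0.031, 0.0257 and 0.0111), while the main one gave -0.07. In the medium without serine against the cells before the change, the same 3 gave -0.26, -0.31 and -0.28, all called, against -0.12 for the main one. In the averaged serine comparison at 0 h they gave -0.15, -0.24 and -0.24 (adjusted p = 0.0183, 0.0034 and 0.000287), against -0.11 for the main one, not called. The last of them gave -0.065 in the serine mean (adjusted p = 0.0418), against -0.04 for the main one. An AMT probe set with a mean of 4.66 gave 0.19 in the serine mean (adjusted p = 0.0309), against 0.05 for the main one. This AMT probe set and the main probe sets of GLDC and GATM have IDs with an s suffix. Whether they also bind other transcripts was not tested.

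**Figure D4:**
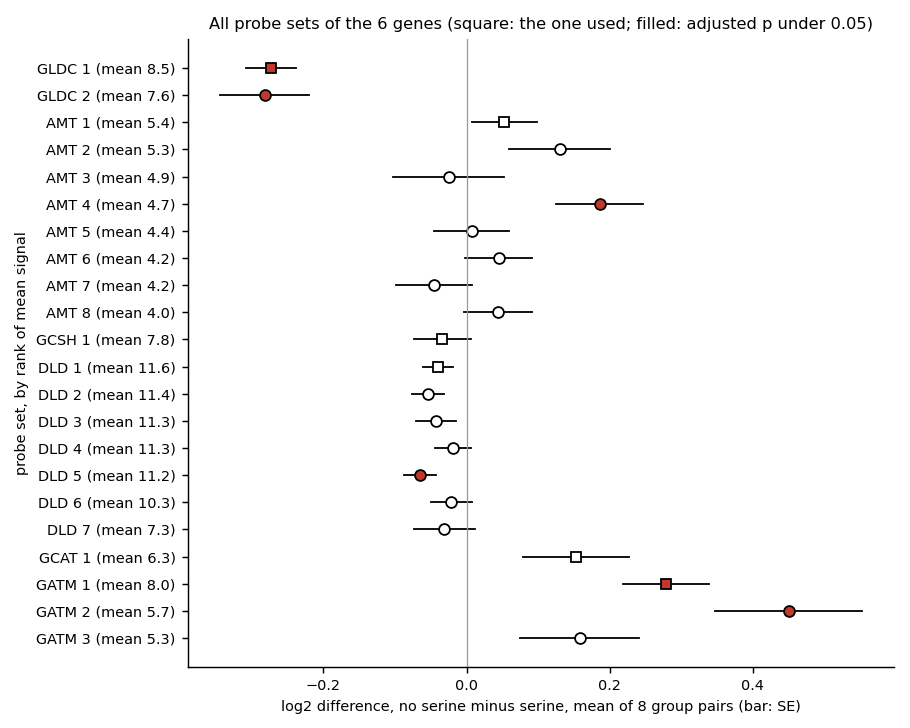
Log2 difference without minus with serine, averaged over 8 pairs of groups, with its SE (horizontal axis), for all 22 probe sets of the 6 genes (rows, with the mean log2 signal). Squares are the probe sets used, and filled symbols have an adjusted p under 0.05. Both GLDC probe sets lie below 0, and all 3 of GATM lie above it.

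Over the 17 group means the 6 genes did not run as one. GLDC and GATM had a Pearson r of -0.49, GLDC and DLD 0.52, GCSH and DLD 0.50 and AMT and GATM 0.68. These values describe 17 groups that share times, media and arrays of 1 series. Genes whose group means ran most like GLDC were CCND3 (r = 0.93), ACKR3 (0.93) and TIMM10 (0.90), and most like GATM were ZNF587 (0.94), QPCT (0.94) and CRLS1 (0.93). For DLD they were MCMBP (0.89), MAGOHB (0.88) and TMX1 (0.88). Group means of ACKR3 were 4.4 to 5.48, in the lower part of the scale.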

How the data were processed

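The deposited values are log2 probe set signals of 50 arrays, made by the authors from Trizol-extracted RNA per the labels' protocols. The submitters' processing notes name RMA (background correction, normalization and probe summary) and limma, with no version or setting. RMA compresses changes of dim probe sets. All 50 columns were matched to samples by label, and no 2 arrays held identical values.

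Of 49386 probe sets, 45311 name 1 gene symbol, 1269 several, 2713 none, and 93 are controls; 43 symbols were updated through RefSeq (GRCh38.p14). Those with no symbol, or more than 1, were left out. For each of 18227 genes, 11843 of which have several probe sets, the one with the highest mean was used. A single linear model with a mean for each of 17 groups was fitted to all arrays with limma 3.58.1 in R 4.3.3 and moderated by eBayes (33 residual and 3.7 prior degrees of freedom), and p-values were adjusted by Benjamini-Hochberg over all genes. Simulated arrays with known changes were used to test the scripts. Intervals are 95% intervals. Precision is limited by the number of arrays.

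The genes, gene lists and comparisons were chosen with earlier results of these data known, and the averaged serine comparisons after the values here had been seen. The 6 genes are always named. Of each list, the rule names up to 3 called genes with the smallest p in the comparisons for which lists are described, and other called genes named there were added after their values were seen. The 3 genes most like a member are named by Pearson r. The labels do not say whether arrays came from separate cultures, so p-values measure the spread between arrays, which may be technical. Alternatives were other probe sets, a filter on dim genes, quantile normalization, centring, array weights, a trended prior, only the arrays compared, and leaving out each array.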

Additional observations from a re-analysis of the deposited data

How the results depend on the processing

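None of the 6 genes was called for compound 16, or for its difference between media, under any alternative or with any array left out. The mean over the 8 serine pairs called GLDC and GATM under each setting run, which did not include a fit of its own arrays only, and centring added DLD (3 genes). For serine lack under compound 16 at 0, 1.5 and 24 h (1 gene each), 0 were called with the second probe sets or only the arrays compared, 0 at 24 h with the mean of probe sets, and at 0 h 2 without dim genes or after quantile normalization and 3 after centring. At 6 h, 1 rather than 0 was called with the mean of probe sets, without dim genes, with array weights or a trended prior. In DMSO, 1 rather than 0 was called at 0 h with the second probe sets and at 1.5 h with the mean of probe sets, centring or weights. The averaged serine comparison gave 2 rather than 1 at 0 h with the mean of probe sets, without dim genes, with centring or a trended prior, each time adding DLD. With the second probe sets DLD (-0.15, adjusted p = 0.0219) took the place of GLDC (-0.31, 0.123). At 6 h it gave 0 rather than 2 with the second probe sets, and 1 with the mean of probe sets or only the arrays compared. For the medium with serine, 0 rather than 1 was called with the second probe sets or only the arrays compared, while AMT took the place of GATM with the mean of probe sets and GLDC did so after centring. For the medium without serine, DLD was added with the mean of probe sets or centring (3 genes) and took the place of GATM with the second probe sets, and leaving out arrays gave 2 to 3 genes.

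In DMSO without serine at 6 h against 0 h, 1 rather than 2 was called with the second probe sets, the mean of probe sets or only the arrays compared, and 4 after centring. Quantile normalization put GLDC in the place of DLD. At 24 h, DLD took the place of GATM with the second probe sets or the mean of probe sets, and 2 rather than 1 was called without dim genes, after centring or with a trended prior. With serine at 6 h, 1 rather than 0 was called with the mean of probe sets or a trended prior, 2 without dim genes or after quantile normalization, and 4 after centring. With serine at 24 h, 0 rather than 1 was called with the second probe sets or their mean, and 3 after quantile normalization or centring. The dimmest GATM probe set gave -0.051 ± 0.232 for 6 h against 0 h without serine (adjusted p = 0.917). The cause of these changes was not tested, except that fits of the compared arrays only hold fewer arrays.

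With single arrays left out, the counts ran from 0 to 1 in serine lack in DMSO at 1.5 h and under compound 16 at 1.5, 6 and 24 h, from 1 to 2 under compound 16 at 0 h, from 0 to 2 in the medium with serine and in DMSO without serine at 24 h, and from 1 to 2 in DMSO without serine at 6 h, DMSO with serine at 24 h and the averaged comparison at 0 and 6 h. No paired analysis was possible because the numbers in the titles run through the series and no groups share them. No detection value was used, so the dim AMT and the minor GATM probe sets have no stated background.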

Other observations

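Listed genes of glycine metabolism were called across the change of medium about as often as all genes. At 0 h, DMSO cells without serine were set against cells still in RPMI, and 12 of 43 listed genes were called (27.9%), against 28.6% of all genes. Of 11 genes of the complexes that share DLD, 3 rose and 2 fell. BCKDHA and BCKDHB, the E1 subunits of the branched-chain ketoacid dehydrogenase, rose by 0.73 and 0.50 on the log2 scale and PDHB, of the pyruvate dehydrogenase, by 0.23. PDHX fell by 0.44 and DLST, the E2 subunit of the 2-oxoglutarate dehydrogenase, fell by 0.165. LIPT1, a lipoyl transferase, rose by 0.29 (1 of 3 lipoylation genes), and AGXT2, a mitochondrial aminotransferase that yields glycine, rose by 0.51 (1 of 6 supply genes). AGXT2 lay near the bottom of the scale, with a mean log2 signal of 4.39. Of 10 genes of glycine use, GSS rose by 0.23, GART fell by 0.33 and GARS1 fell by 0.20. CKB, a creatine kinase, fell by 0.35 (1 of 6 creatine genes), and SLC25A38, the mitochondrial glycine carrier, rose by 0.31 (1 of 7 carriers).

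Under compound 16 at 6 h, 8 of 43 listed genes were called without against with serine (18.6%), against 11.8% of all genes. GARS1 was 1.16 higher without serine, SLC6A9 0.78, SLC38A2 0.62, SHMT2 0.57 and SLC25A38 0.29. In the same comparison SHMT1 fell by 0.325, ALAS1 by 0.37 and BAAT by 0.60.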
